A study of Mus musculus with 96 samples.

Results

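Oxidative phosphorylation, the process by which mitochondria make ATP, was followed through the nuclear genes for its 5 enzyme complexes. The 98 members are the protein-coding mouse genes whose symbols begin with Ndufa, Ndufb, Ndufc, Ndufs, Ndufv, Sdha to Sdhd, Uqcr, Cox4 to Cox8 or Atp5, out of 55335 gene identifiers (21899 protein-coding) in the table. They were chosen by name, not by their values, although earlier results of these data were known. Complex I gave 44 members, of which 8 are Ndufaf assembly factors, and complex II gave 8, of which 4 are Sdhaf assembly factors. Complex III gave 8 members, complex IV 20, and complex V, the ATP synthase, 18. In complex IV, 8 members are alternative isoforms with a restricted tissue range or a related paralog, such as Cox4i2 and Cox7a1. In complex V, 1 member is a read-through gene model that shares its symbol with Atp5o and spans several neighbouring genes, and the summed levels below leave it out and cover 97 members.

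The libraries hold RNA from nuclei of the visual cortex of mice with floxed enhancers of Igf1, the gene for insulin-like growth factor 1. The lines are Igf1-E1 fl/fl, Igf1-E23 fl/fl and Igf1-E123 fl/fl, called E1, E23 and E123, and every mouse also carried VIP flp/wt, an allele that puts the recombinase Flp in interneurons that make vasoactive intestinal peptide (VIP). A Flp-dependent virus, AAV-Syn1-fDIO-mScarlet-KASH-2a-Cre or the same with dCre in its place, was injected into visual cortex at 55 to 60 days of age, so that Cre (labelled as the knockout) or dCre (the control) with a red nuclear tag was made under the neuronal Syn1 promoter in VIP cells. The mice were housed in the dark from 3 days later for 10 to 12 days, and tissue was taken in the dark or after 1 h of light. Nuclei with the tag (VIP) and unselected nuclei (total) were sorted from the tissue in lots of 50 to 100, which gave 24 groups of 3 to 5 replicates and 96 libraries. In each fraction line E1 had 3 dark and 5 light dCre and 5 dark and 4 light Cre replicates, line E23 had 4 of each, and line E123 had 4 of each except 3 dark Cre. The sample titles call the replicates BioRep, with a number. No label states that replicates of a group came from separate animals, so p-values measure the spread between these samples.

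As background, electrons from NADH enter the respiratory chain at complex I (Nduf genes) and electrons from succinate at complex II (Sdh genes). They pass through complex III (Uqcr genes) to complex IV, cytochrome c oxidase (Cox genes), and complex V (Atp5 genes) uses the proton gradient that complexes I, III and IV build. Complexes I, III, IV and V also contain subunits encoded in mitochondrial DNA, whose RNA is made outside the nucleus. Neurons depend on this pathway for the ATP that ion pumping and transmitter release use, and fast inhibitory interneurons are known for a high demand. The nuclear factors NRF1, GABP (an ETS family factor) and YY1 are known regulators of many of these genes.

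The promoters of 4 members are shown, 2 with an NRF1 word whose genes rose after light in control VIP nuclei, the most highly expressed ATP synthase gene, and a long gene that did not pass the test. With all libraries 6 of 11 members with the NRF1 word and 18 of 65 without it rose. Without the 4 dark replicates described below, 0 of either set passed. Each promoter shown is the 250 bases before the RefSeq start site of the gene (build GRCm38.p6), 5′ to 3′ on the strand of the gene. Capitals mark CGCATGCG, the core of the NRF1 site, or CCGGAAG, an ETS site, here as its reverse complement CTTCCGG. The YY1 word described below is in none of the stretches shown, although Ndufs4 holds it after its start. Cox6a1, a complex IV subunit, lies at chr5:115348959-115349208 on the minus strand, Ndufa11, a membrane arm subunit of complex I, at chr17:56717512-56717761 on the plus strand, Atp5b, the catalytic beta subunit of ATP synthase, at chr10:128083057-128083306 on the plus strand, and Ndufs4, a complex I subunit, at chr13:114388095-114388344 on the minus strand.
Cox6a1: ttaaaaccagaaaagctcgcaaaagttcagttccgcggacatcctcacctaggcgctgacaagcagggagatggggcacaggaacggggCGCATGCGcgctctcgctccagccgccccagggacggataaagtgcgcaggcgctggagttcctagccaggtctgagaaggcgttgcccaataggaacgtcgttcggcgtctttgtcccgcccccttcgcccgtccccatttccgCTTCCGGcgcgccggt
Ndufa11: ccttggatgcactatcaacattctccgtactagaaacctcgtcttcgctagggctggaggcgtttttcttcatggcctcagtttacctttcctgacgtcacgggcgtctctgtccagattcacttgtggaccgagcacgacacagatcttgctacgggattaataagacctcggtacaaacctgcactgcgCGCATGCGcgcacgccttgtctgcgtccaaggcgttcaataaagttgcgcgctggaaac
Atp5b: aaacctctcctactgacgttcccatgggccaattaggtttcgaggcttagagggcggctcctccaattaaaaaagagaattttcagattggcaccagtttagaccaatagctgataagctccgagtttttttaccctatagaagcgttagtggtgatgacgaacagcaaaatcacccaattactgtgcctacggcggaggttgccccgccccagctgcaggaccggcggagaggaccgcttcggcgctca
Ndufs4: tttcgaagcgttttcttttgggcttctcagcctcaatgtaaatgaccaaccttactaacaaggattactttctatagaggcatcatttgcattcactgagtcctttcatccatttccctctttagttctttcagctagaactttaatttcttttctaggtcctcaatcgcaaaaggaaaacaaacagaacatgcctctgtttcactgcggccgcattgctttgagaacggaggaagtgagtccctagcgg

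A promoter of 300 bases, from 250 before to 50 after the start, was found for 78 members. Searched on both strands, CGCATGCG stood in 11 of the 78 (14.1%) against 2.77% of 17491 promoters of protein-coding genes and 2.07% of all 27025. The ETS word CCGGAAG stood in 21 (26.9%, against 12.9% and 9.93%), and the YY1 word AAGATGGCG in 8 (10.3%, against 2.14% and 1.64%). At least 1 of these 3 words, which do not contain one another, was in 33 of the 78 (42.3%), against 16.7% of protein-coding promoters. The longer NRF1 consensus, which contains the core, was in 7 members. Median GC content was 58.4% in members, 56.3% in protein-coding and 52.8% in all promoters. A match is a description of the letters only.

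Members accounted for a summed level of 1469 to 6187 counts per 1000000 (CPM, on library sizes scaled by TMM) in VIP nuclei, and 4 replicates stood apart in both fractions. These were the dark dCre replicates 1 and 2 of E1 and replicates 1 and 2 of E123. Their VIP libraries had sums of 1481, 1469, 1489 and 1541 CPM, and the lowest of the other 44 VIP libraries had 2187 CPM. Their total libraries had 1637, 1735, 1551 and 1747 CPM, below all other 44, which began at 2481 CPM. The same libraries had the highest length index, the mean log2(CPM + 1) of protein-coding genes of at least 100000 bases minus that of genes of at most 10000 bases, with members left out. It was 4.45 or more in these VIP libraries against at most 3.66 in the others, and 4.02 or more against at most 3.50 in total nuclei. The counts of called members and the medians in each light and virus comparison that uses dark dCre libraries are therefore given with and without these 4. The 4 stand apart by low sums of these same members, so leaving them out lowers such differences partly by construction. It also leaves fewer dark libraries, so a lost call does not show what the call rested on. Values of single genes that stand alone include the 4, as do the counts of members whose libraries did not overlap between groups.

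**Figure D1:**
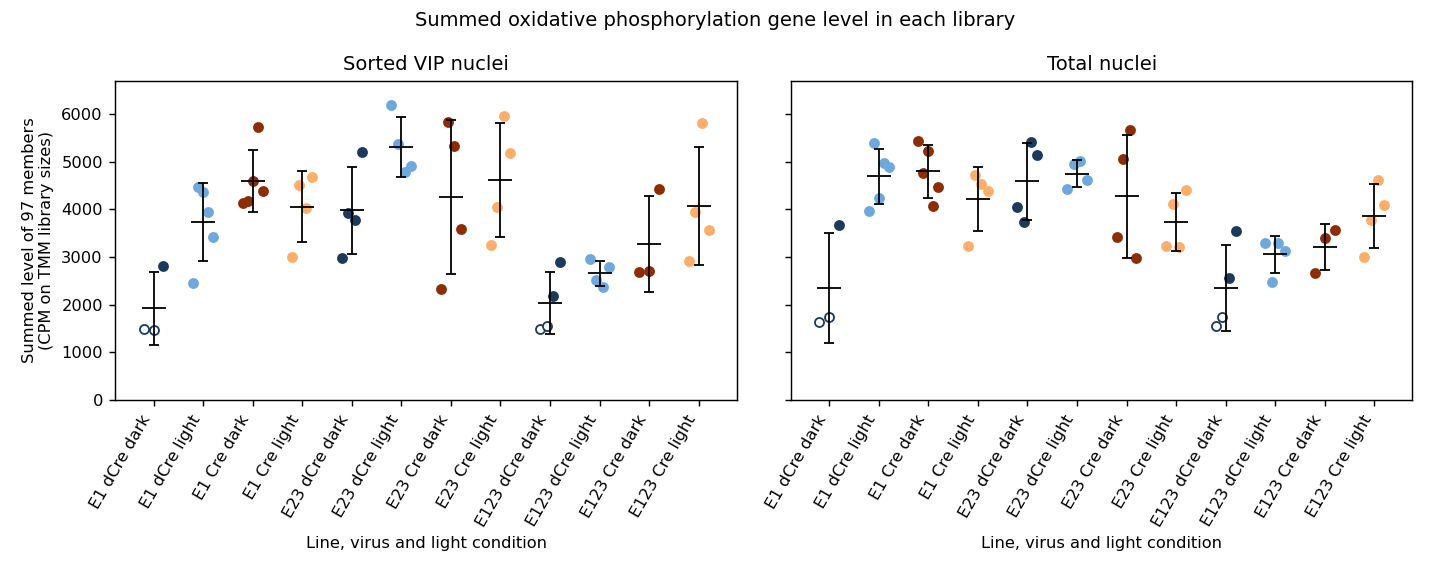
Summed level of 97 members (CPM, y axis) in each of the 96 libraries, by group (x axis), for VIP and total nuclei, with the mean ± SD of each group. The 4 dark dCre replicates of E1 and E123 that stand apart are drawn as open circles and reach at most 1541 CPM in VIP and 1747 CPM in total nuclei.

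Among dark dCre groups the summed level in VIP nuclei was 1917 ± 765 CPM in E1 (SD, n = 3), 2025 ± 655 in E123 (n = 4) and 3978 ± 924 in E23 (n = 4). After light the dCre groups had 3734 ± 825 CPM (n = 5), 2657 ± 266 (n = 4) and 5315 ± 636 (n = 4) in the same order. The dark Cre groups had 4603 ± 652 CPM (n = 5), 3274 ± 1002 (n = 3) and 4268 ± 1617 (n = 4). The E1 dark dCre libraries did not overlap the E1 dark Cre libraries, while the 3 conditions overlapped in E23. In total nuclei the dark dCre groups had 2351 ± 1154 (E1), 2351 ± 911 (E123) and 4589 ± 817 CPM (E23), and their light counterparts 4696 ± 582, 3053 ± 391 and 4755 ± 276 CPM. The sum depends on how all other genes share a library, and in pools of nuclei fewer cells of a type and less RNA per cell cannot be told apart.

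Over the 48 VIP libraries the summed level fell as the length index rose, with Pearson's r of -0.97 and Spearman's rho of -0.97, and r was -0.95 without the 4 replicates, -0.97 without the 2 libraries farthest from the median index and -0.94 for deviations from group means. In total nuclei these values were -0.97, -0.93, -0.94, -0.96 and -0.95. Both measures come from the same scaled counts, and most members are short, with a median gene span of 7565 bases against 26389 for the protein-coding genes tested. The share of counts from mitochondrial DNA correlated less with the sum, with r of 0.49 in VIP and 0.44 in total nuclei. These are descriptions without a test. The index follows the summed level so closely that a fit with it as a covariate can take out the member change itself. Such fits are given below, but they do not test the part of the length index, which was not tested.

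**Figure D2:**
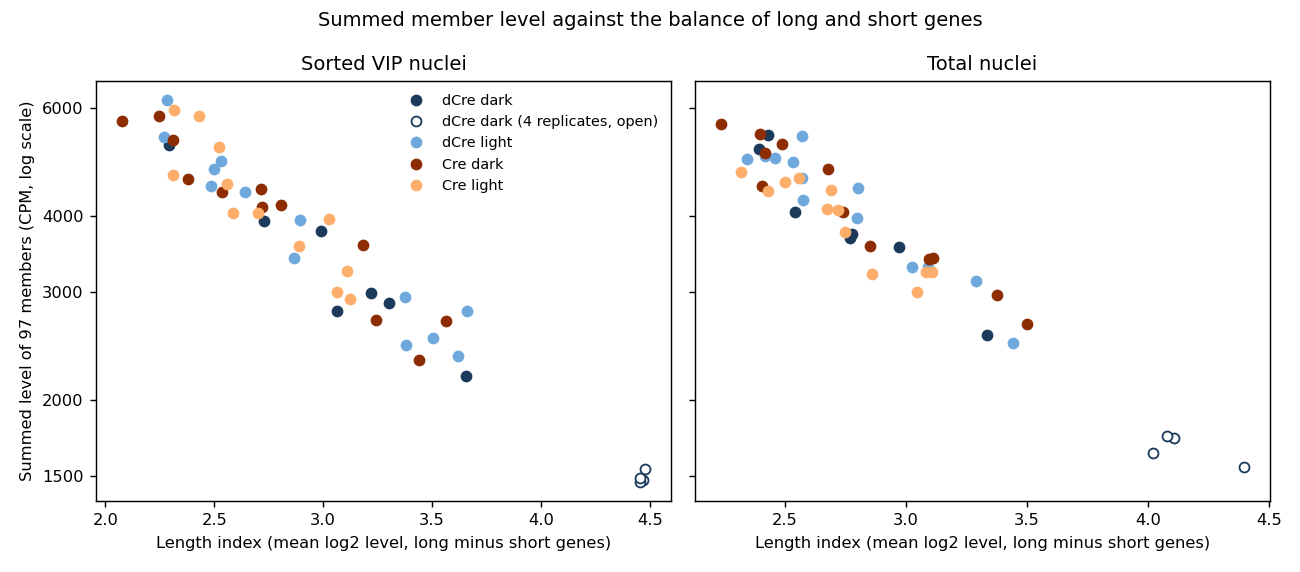
Summed level of 97 members (CPM, log scale, y axis) against the length index (x axis, log2 units) in the 48 VIP and 48 total libraries, 1 point per library. Libraries with a high index have a low summed level in both fractions, and the 4 dark dCre replicates sit at the far right as open circles.

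Per kilobase of exon, complex IV and complex V genes had the highest levels of the members, and the order was much the same in both fractions. In complex IV the highest was Cox8a, a small subunit, with 109 CPM per kb in VIP and 98.8 in total nuclei, followed by Cox7b with 65.9 and 65.5 and Cox4i1, the ubiquitous subunit 4 isoform, with 63.2 and 70.4. In complex V it was Atp5b with 74.2 CPM per kb in VIP and 79.1 in total nuclei. The highest complex I gene was Ndufb9, a membrane arm subunit, with 42.3 and 44.5 CPM per kb. In complex II the highest was Sdha, the flavoprotein subunit of succinate dehydrogenase, with 34.2 and 30.8, and in complex III Uqcr10, a small subunit, with 35.8 and 46.5 CPM per kb. In VIP nuclei Uqcr10 and Uqcrc2, a core protein, at 35.7 CPM per kb, stood too close to be ranked against spreads between libraries of 11.3 and 27.3 CPM (SD, n = 48) for the whole genes.

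Most of the alternative isoforms had few counts, and Cox7b2 was the exception. Against Cox4i1, Cox4i2, the lung isoform, had 0.649 CPM per kb of exon in VIP and 0.369 in total nuclei and had a count in 23 of 96 libraries. Cox6a2, the heart and muscle form, had 1.49 and 1.31 CPM per kb against 60.7 and 56.5 for Cox6a1, and a count in 64 libraries. Cox7a1, also of heart and muscle, had 0.367 and 0.643 against 39.8 and 39.0 for Cox7a2. Of the testis forms, Cox6b2 was as low, with 0.326 and 0.231 against 61.6 and 59.4 for Cox6b1. Cox7b2 was higher, at 8.67 and 5.64 CPM per kb, with a count in 79 libraries. Cox8b and Ndufa4l2 had counts in 3 and 11 libraries, and Cox8c had 0 counts in all 96, which allows up to 3 counts in any 1 library (counting error only, since PCR copies without molecular identifiers are not independent molecules). These few counts left 4 members in VIP and 6 in total nuclei below the filter on low counts, so 94 and 92 members were tested.

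Members varied together across VIP libraries, with exceptions among long genes and assembly factors. Spearman's rho between the level of a member and the mean log2 level of the other members over 48 libraries was 0.95 for Atp5b, 0.94 for Atp5a1, the alpha subunit of ATP synthase, and 0.90 for Cox5b and Ndufb11. It was 0.02 for Ndufs4, -0.12 for Ndufaf2, -0.24 for Sdhaf3 and -0.28 for Ndufaf6, the last 3 being assembly factors. All points share the same scaling, so these values are descriptive.

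Between fractions most members differed little, and those that passed the test were mostly lower in VIP nuclei. Over all 12 conditions, 3 of 94 members were higher and 10 lower (edgeR quasi-likelihood test with Benjamini-Hochberg adjustment over all genes, adjusted p under 0.05), where 14.8% of all genes were higher and 20.7% lower. The median log2 difference of members was -0.08, against -0.11 for all 22926 genes tested. By complex, 1 member was higher and 5 lower of 44 in complex I, 1 and 2 of 8 in complex II, 0 and 2 of 8 in complex III and 0 and 1 of 16 in complex IV. None of 17 complex V members apart from the read-through model passed, 1 of these having an unadjusted p under 0.05.

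Ndufa13, an accessory subunit of complex I also known as GRIM-19, was higher in VIP nuclei, with 38.1 ± 16.1 against 27.1 ± 11.2 CPM (SD, n = 48 each), a log2 difference of 0.49 (SE 0.11, adjusted p = 5.8e-05). It was higher in 11 of 12 conditions. Sdhc, a membrane anchor of complex II, had 27.6 ± 9.60 and 22.7 ± 7.45 CPM and a log2 difference of 0.29 (SE 0.11, adjusted p = 0.0326), and its adjusted p was 0.20 without the filter on low counts, 0.31 on total counts and 0.51 without the 4 replicates. The read-through model of Atp5o was higher by 0.39 (SE 0.05, adjusted p = 7.9e-12), and its span covers other genes whose reads cannot be told apart from it.

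Among the lower members, Sdhaf4, an assembly factor of complex II, passed (adjusted p = 0.00149) and was lower in 9 of 12 conditions. Its 3 E1 dark dCre VIP libraries had 0 counts against 15 to 40 in the matching total libraries, which weighs on the mean over conditions, so its fitted difference is not given. Ndufs3, a core subunit of complex I, had 54.4 ± 18.9 CPM in VIP and 66.5 ± 19.8 in total nuclei, a log2 difference of -0.32 (SE 0.09, adjusted p = 0.00215), and was lower in 11 of 12 conditions. Ndufa3, an accessory subunit, had 24.5 ± 10.1 and 31.3 ± 11.2 CPM and a difference of -0.40 (SE 0.11, adjusted p = 0.00327), lower in 11 of 12 conditions. The library ranges of both genes overlapped between the fractions. Cox7c of complex IV differed by -0.38 (SE 0.12, adjusted p = 0.0072), Uqcrb of complex III by -0.41 (SE 0.13, adjusted p = 0.00915) and the complex I assembly factor Ndufaf2 by -0.27 (SE 0.09, adjusted p = 0.0108). Ndufv1, the NADH-binding subunit, differed by -0.37 (SE 0.14, adjusted p = 0.0351). The other redox and catalytic subunits did not pass, with log2 differences of -0.09 for Ndufs1, 0.15 for Sdha, 0.03 for Sdhb, -0.06 for the Rieske protein Uqcrfs1, -0.10 for Atp5a1 and -0.15 for Atp5b. The core protein Uqcrc1 (-0.11), Cox4i1 (-0.25) and Cox5a (0.07) did not pass either. Without the 4 replicates 2 of 95 members were higher and 11 lower. Scaling moved the split: on total counts 2 members were higher and 21 lower, with a median of -0.20 for members and -0.24 for all genes, and with the length index held constant 8 were higher and 8 lower. With same-numbered VIP and total libraries of a condition taken as pairs, 3 were higher and 21 lower. Without the replicates numbered 1, 4 members were lower, and Cox7c (adjusted p = 0.0514), Uqcrb (0.0758), Sdhc (0.162) and Ndufv1 (0.125) lost their calls. Other single replicate numbers took the calls of Ndufa3 (0.117 without number 3), Ndufaf2 (0.0922 and 0.0593 without 2 and 4), Uqcrb (0.0871 without 2), Ndufv1 (0.0542, 0.0994 and 0.0649 without 2, 3 and 5) and Sdhc (0.0751, 0.0723 and 0.0590 without 2, 3 and 4).

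Short members and other short genes were set side by side. Of 60 members of at most 10000 bases 1 was higher and 7 lower with a median of -0.13, and of 3601 other short protein-coding genes 247 were higher and 748 lower with a median of -0.22. The 13 respiratory genes of mitochondrial DNA gave 7 with enough counts, and all 7 were higher in VIP nuclei with a median of 0.83, mt-Nd1 among them with 0.83 (SE 0.15, adjusted p = 3.6e-06). Their RNA is made outside the nucleus, so in sorted nuclei their levels, here and below, need not follow those of the cell. The share of counts from mitochondrial DNA ranged from 0.169% to 3.16% in VIP and from 0.154% to 1.41% in total libraries. Of 39 assembly factors outside the name rule 3 were higher and 4 lower, with Cox16 at 0.43 (SE 0.06, adjusted p = 4.3e-09) and Cmc2 at -0.92 (SE 0.21, adjusted p = 0.000197). The list of these 39 also holds Cyc1, cytochrome c1, which is a subunit of complex III and not an assembly factor. Of 18 genes of the tricarboxylic acid cycle 1 was higher and 3 lower, the higher one being Idh2, the mitochondrial NADP-dependent isocitrate dehydrogenase, at 0.86 (SE 0.11, adjusted p = 1.6e-10). Of 18 glycolysis genes 2 were higher and 5 lower, led by Ldha, a lactate dehydrogenase subunit, at -0.81 (SE 0.13, adjusted p = 1.1e-07) and the enolase Eno1 at -0.70 (SE 0.13, adjusted p = 7.6e-06). Of 21 mitochondrial carriers and quality control genes 3 were higher and 4 lower, with Mfn1, a fusion GTPase, at 0.95 (SE 0.09, adjusted p = 4.4e-15) and the aspartate-glutamate carrier Slc25a12 at 0.46 (SE 0.06, adjusted p = 4.0e-11). Of 18 regulators of mitochondrial biogenesis 2 were higher and 5 lower, and of 30 cytosolic ribosomal protein genes 0 and 3. Without the 4 replicates these lists gave 7 and 0 of 8 for mitochondrial DNA, 3 and 2 for assembly factors, 1 and 5 for the tricarboxylic acid cycle, 0 and 7 for glycolysis, 3 and 2 for carriers, 1 and 4 for regulators and 0 and 3 for ribosomal proteins (higher and lower).

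On the VIP and GABAergic marker lists the VIP fraction matched its label. Higher in VIP nuclei were 13 of 13 VIP interneuron markers, with a median log2 difference of 5.05, and 10 of 10 GABAergic markers, with 3.00. In the other direction were 15 of 16 excitatory neuron markers (median -1.97), 14 of 14 oligodendrocyte markers (-3.37), 11 of 11 microglia markers (-2.25) and 4 of 10 astrocyte markers (-0.51). Total nuclei thus differ from VIP nuclei in makeup, and the part of each cell type in the member differences was not tested. Markers of parvalbumin and somatostatin interneurons and of endothelial and mural cells are not given here or below. Whether such nuclei are in the VIP fraction is therefore not judged.

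**Figure D3:**
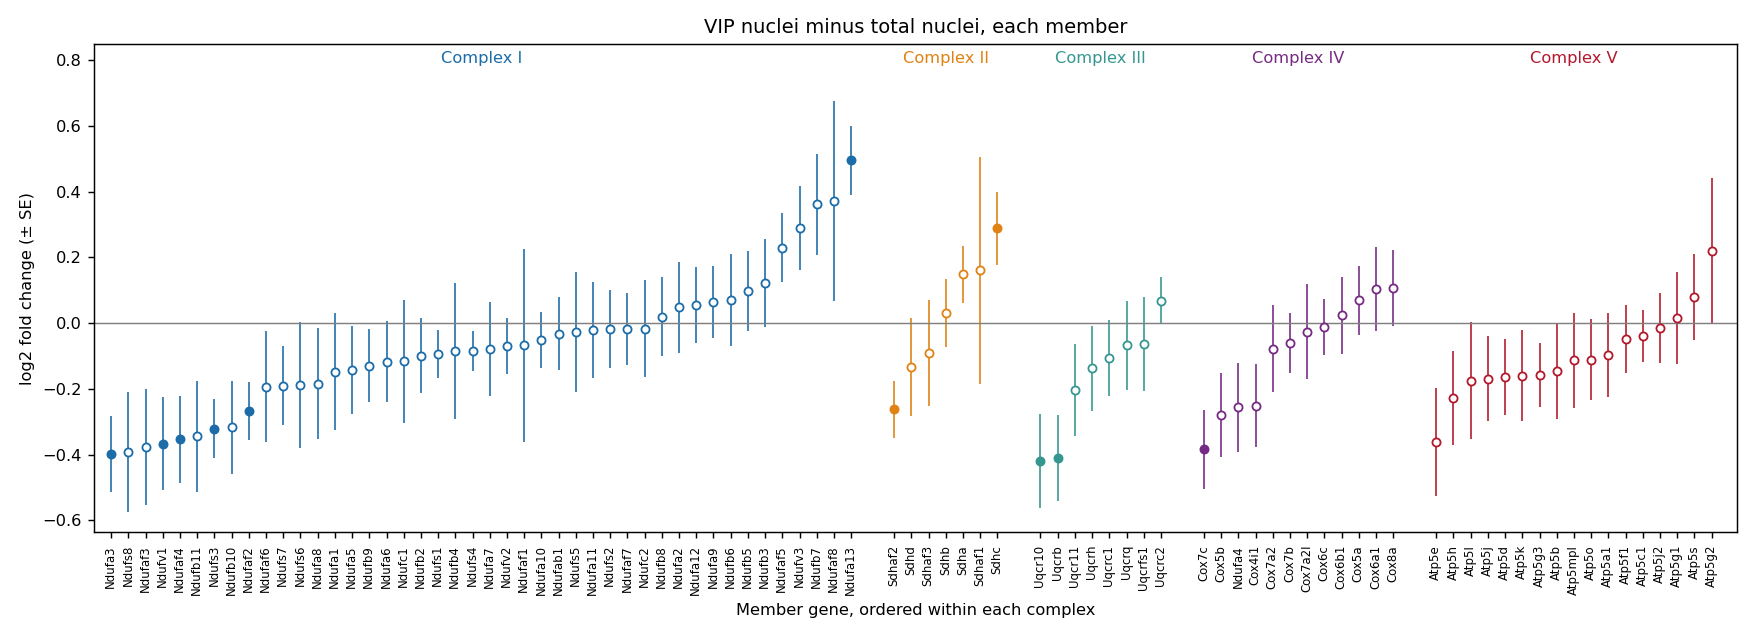
Log2 difference between VIP and total nuclei (y axis, VIP minus total, ± SE) for members of each complex (x axis), over 48 libraries each. Filled points passed the adjusted p of 0.05, and they lie mostly below 0, with Ndufa13 and Sdhc above. Alternative isoforms, Sdhaf4 and the read-through model are left out.

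After 1 h of light, control (dCre) VIP nuclei had higher levels of 29 of 94 members and lower levels of none. This is an average over the 3 lines, and the count did not hold without the 4 dark replicates that stood apart. The median log2 change of members was 0.75, against 0.01 for all 20585 genes, and 84 of 94 members lay above 0. Among all genes 3.97% were higher. Without the 4 dark replicates 0 of 95 members passed in edgeR (16 at an unadjusted p under 0.05), the median was 0.35 against 0.10 for all genes, and 77 of 95 lay above 0. DESeq2 on all libraries called 36 members higher and 0 lower, and it was not run without the 4. With the length index held as a covariate edgeR called 0, and the member median was 0.16 against 0.06 for all genes. The index follows the summed member level (r of -0.97), so this fit cannot separate them.

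By complex, 9 of 16 members of complex IV rose (median log2 change 0.89), 3 of 8 of complex III (0.88), 6 of 17 of complex V (0.80), 9 of 44 of complex I (0.62) and 2 of 8 of complex II (0.56). Without the 4 replicates, where none passed, these medians were 0.47, 0.36, 0.40, 0.25 and 0.32. In complex IV, Cox4i1 had a lowest, median and highest level of 3.16, 35.7 and 139 CPM in 11 dark and 38.6, 113 and 226 CPM in 13 light libraries. The ranges overlapped, and the change was 1.41 (SE 0.29, adjusted p = 0.00277) on the log2 scale, or 0.98 (SE 0.32) without the 4 replicates. Cox7a2, the widely expressed form of subunit 7a, had 0.184, 14.9 and 68.2 CPM in the dark and 12.3, 44.0 and 85.8 in light, a change of 1.44 (SE 0.32, adjusted p = 0.0055) and 1.04 (SE 0.34) without the 4. The dark libraries of both genes reached further down than any light library. Ndufa4, now counted with complex IV, changed by 1.17 (SE 0.29, adjusted p = 0.0132), Cox8a by 0.90 (SE 0.24, adjusted p = 0.0196), Cox5a by 0.90 (SE 0.24, adjusted p = 0.0201), Cox7b by 0.74, Cox6b1 by 0.97 and Cox6a1 by 0.89. The 4 alternative isoforms with enough counts for a test, Cox4i2, Cox6a2, Cox6b2 and Cox7b2, did not pass (1 at an unadjusted p under 0.05).

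In complex V, Atp5d, the delta subunit of the F1 part, had the smallest p of all members. Its levels were 7.19, 25.1 and 60.3 CPM (lowest, median and highest) in 11 dark and 31.4, 57.5 and 113 CPM in 13 light libraries, a log2 change of 1.40 (SE 0.26, adjusted p = 0.000914), and of 0.84 without the 4 replicates. Atp5o, the stalk subunit OSCP, rose by 1.28 (SE 0.29, adjusted p = 0.00597), and by 0.81 without the 4. The catalytic core did not pass, with 0.86 (SE 0.28, adjusted p = 0.0533) for Atp5a1 and 0.91 (SE 0.32, adjusted p = 0.0783) for Atp5b. Atp5b had 18.0, 168 and 602 CPM in dark and 70.1, 314 and 562 CPM in light libraries, and its dark range held the whole light range.

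In complex I, Ndufs7, a core subunit with an iron-sulphur cluster, had 5.69, 15.8 and 57.8 CPM in dark and 12.2, 35.9 and 92.2 CPM in light libraries and a log2 change of 1.16 (SE 0.27, adjusted p = 0.00799), or 0.89 without the 4 replicates. Ndufa13 changed by 0.86 and Ndufa8 by 1.52, the largest called change in complex I, with adjusted p-values of 0.0163 and 0.0237. The redox subunits Ndufs1 and Ndufv1 did not pass, with 0.07 (SE 0.17, adjusted p = 0.892) and 0.53 (SE 0.34, adjusted p = 0.381). Ndufs4 had 77.6, 102 and 129 CPM in dark and 68.2, 107 and 131 CPM in light libraries. In complex II, Sdhb, the iron-sulphur subunit, rose by 0.83 (SE 0.21, adjusted p = 0.014), and Sdha did not pass, at 0.43 (SE 0.18, adjusted p = 0.132). Sdhaf4 also passed, but all 3 E1 dark dCre VIP libraries had 0 counts of it, so its fitted change is not given. In complex III, Uqcrb, a ubiquinone-binding subunit, had 0.553, 9.95 and 40.4 CPM in dark and 8.32, 29.2 and 42.6 CPM in light libraries, with a change of 1.33 (SE 0.33, adjusted p = 0.0117), or 0.82 without the 4. Uqcr11 and Uqcrh passed at 1.23 and 0.97, while Uqcrfs1 (0.91 (SE 0.31, adjusted p = 0.0599)) and Uqcrc1 (0.69 (SE 0.25, adjusted p = 0.0805)) did not.

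**Figure D4:**
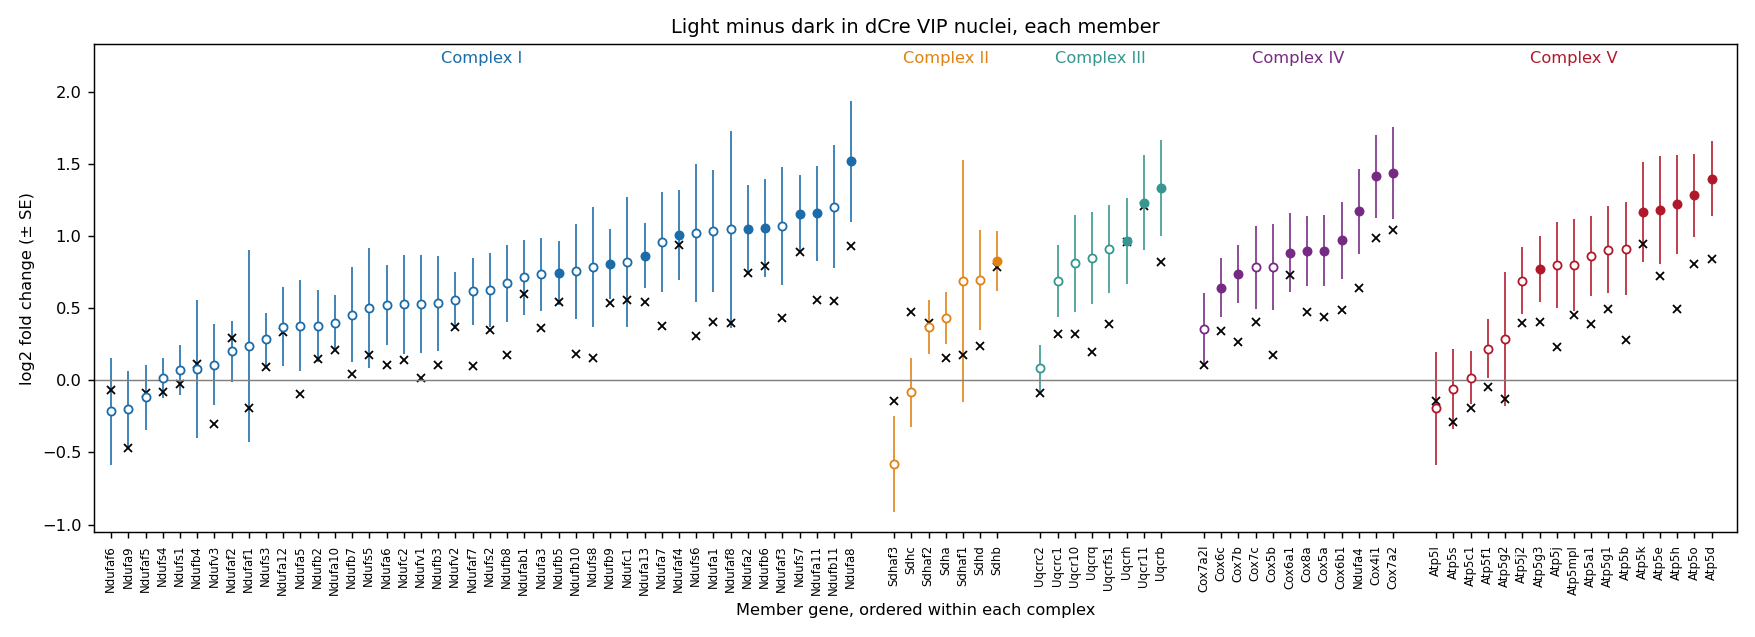
Log2 change after 1 h of light in dCre VIP nuclei (y axis, light minus dark, ± SE) for members of each complex (x axis), 13 light and 11 dark libraries. Filled points passed the adjusted p of 0.05 and all lie above 0, and crosses give the value without the 4 dark replicates, which is lower for Atp5d, Cox4i1 and Uqcrb. Alternative isoforms, Sdhaf4 and the read-through model are left out.

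The change followed gene span. Of members of up to 5000 bases 11 of 28 rose (median log2 change 0.97), of those of 5000 to 10000 bases 13 of 32 (0.83), of those of 10000 to 20000 bases 5 of 17 (0.62), and of those over 20000 bases 0 of 17 (0.02, 3 at an unadjusted p under 0.05). Across 93 members Spearman's rho was -0.63 between span and change and -0.08 between level and change (across genes, which are not independent replicates). Other short genes moved in the same direction: of 3257 other protein-coding genes of at most 10000 bases 339 rose (10.4%) with a median of 0.55, beside 24 of 60 short members (40%) with a median of 0.88. When the 4 were left out the median of short members was 0.40 and that of long members 0.15. By promoter word, 6 of 11 members with CGCATGCG rose (median 0.89) and 18 of 65 without it (0.74), 10 of 21 with CCGGAAG (0.83) and 14 of 55 without (0.74), and 1 of 8 with AAGATGGCG (0.81) and 23 of 68 without (0.75), differences that were not tested. Without the 4, where none passed, the medians with and without each word were 0.56 and 0.33, 0.40 and 0.32, and 0.35 and 0.34.

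**Figure D5:**
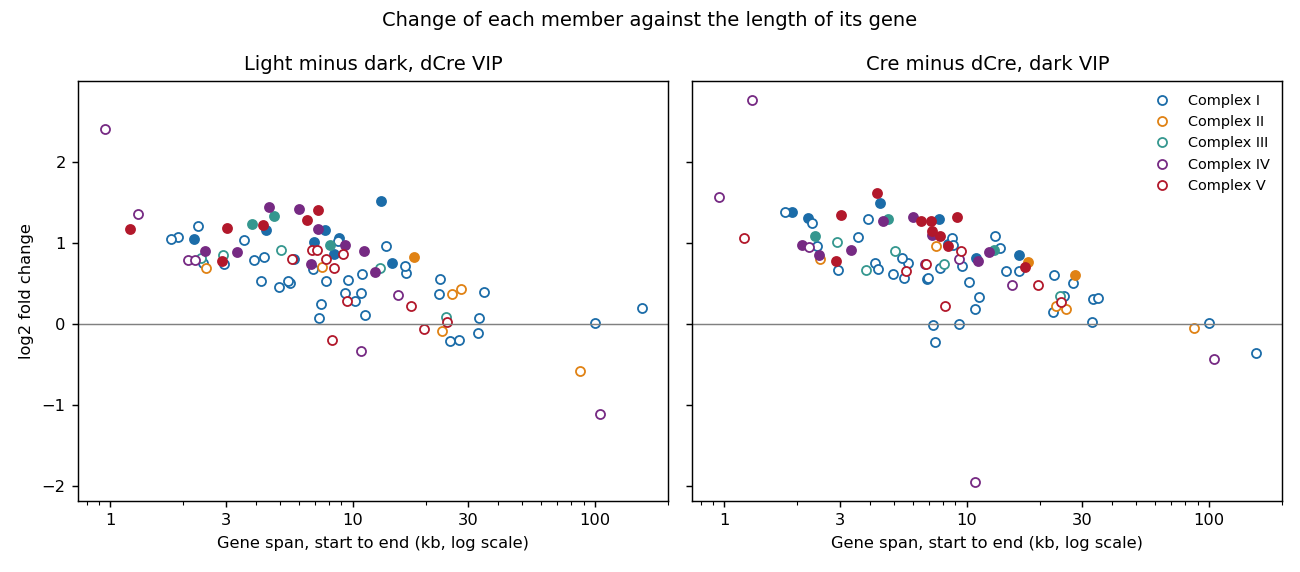
Log2 change of members in VIP nuclei (y axis) against gene span in kb (x axis, log scale), for light minus dark in dCre and Cre minus dCre in the dark. Filled points passed the adjusted p of 0.05, and Sdhaf4 and the read-through model are not drawn. In the first comparison 24 of 60 members up to 10000 bases (Sdhaf4 among the 24) and 0 of 17 over 20000 bases passed.

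Single libraries moved this count. It fell from 29 to 11 without E1 dark dCre replicate 2, to 14 without E1 dark dCre replicate 1 or E123 dark dCre replicate 2, to 15 without E123 dark dCre replicate 1, to 18 without E23 dark dCre replicate 1 and to 19 without E123 light dCre replicate 1. It rose to 54 without E1 dark dCre replicate 3, which left E1 with only the 2 replicates that stood apart. Without E123 light dCre replicate 2, 1 member was called lower. Of the named complex IV genes, Cox6a1 lost its call under 13 of 24 such omissions. Cox6b1 and Cox7b lost theirs without E1 dark dCre replicate 1 (adjusted p = 0.0691 and 0.0733) or 2 (0.0612 and 0.0612) and without E123 dark dCre replicate 1 (0.0506 and 0.0513) or 2 (0.0507 and 0.0515). Cox8a lost it without E1 dark dCre replicate 1 (0.0515) or 2 (0.0607), and Cox5a without replicate 2 (0.0527).

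By line, the change in dCre VIP nuclei was largest in E1, whose dark group held 2 of the replicates that stood apart, but the lines could not be separated by the test of the difference. In E1 13 of 94 members rose, with a median of 1.04 (all genes 2.68% higher, median 0.12). In E23, without such a replicate, 0 passed in edgeR (4 at an unadjusted p under 0.05) where 0.0486% of all genes did, with a median of 0.43. In E123 0 passed (23 at an unadjusted p under 0.05, all genes 0.00972%), with a median of 0.57. The difference between E1 and E23 passed for 0 members (11 at an unadjusted p under 0.05) and 0% of all genes, and its member median was 0.72. Without the replicates that stood apart 0 passed in E1 and in E123 (5 and 6 at an unadjusted p under 0.05), and the medians were 0.36 and 0.30. DESeq2 was not run by line. In E1 the dark levels of Cox4i1 were 24.7, 3.16 and 35.7 CPM and the light levels 38.6, 144, 108, 116 and 69.9 CPM, with no overlap. In E23 they were 57.9, 127, 68.6 and 139 in the dark and 226, 128, 167 and 113 CPM in light, and 2 dark libraries lay within the light range. In E123 they were 16.6, 17.0, 33.5 and 48.7 CPM in the dark and 117, 45.8, 55.9 and 80.0 in light, where only the highest dark library reached the light range.

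Some genes of other energy metabolism lists rose, and none of them passed without the 4 dark replicates. In dCre VIP nuclei after light, 6 of 18 tricarboxylic acid cycle genes rose (median log2 change 0.56), among them Pdhb, a pyruvate dehydrogenase subunit, at 0.92 (SE 0.22, adjusted p = 0.0102) and Idh3b at 1.20 (SE 0.30, adjusted p = 0.0133). Of 17 glycolysis genes 5 rose (0.69), led by Ldha at 1.40 (SE 0.27, adjusted p = 0.00133). Of 21 carriers and quality control genes 7 rose (0.47), with the phosphate carrier Slc25a3 at 0.92 (SE 0.22, adjusted p = 0.00837) and the kinase Pink1 at 1.21 (SE 0.30, adjusted p = 0.0109). Of 30 ribosomal protein genes, which are also short, 13 rose (1.05). None of 39 other assembly factors (0.35, 10 at an unadjusted p under 0.05), 18 biogenesis regulators (-0.18, 1) or 7 genes of mitochondrial DNA (0.47, 0) passed in edgeR, and these lists were not counted in DESeq2. Without the 4, 0 genes of these 7 lists passed, with medians of 0.33 for the tricarboxylic acid cycle (5 at an unadjusted p under 0.05), 0.31 for glycolysis (3), 0.20 for carriers (4), 0.58 for ribosomal proteins (9), 0.22 for assembly factors (1), 0.14 for regulators (1) and 0.95 for mitochondrial DNA (4). Glial markers moved as well: 4 of 10 astrocyte markers rose, with a summed level of 228 to 383 CPM in dark and 229 to 1314 CPM in light libraries. For oligodendrocyte markers 1 of 14 rose, with sums of 101 to 446 and 168 to 2198 CPM and Cspg4 at 0 in all dark libraries. For microglia 2 of 11 rose, with sums of 84.4 to 241 and 99.5 to 218 CPM. Of the markers of the sorted cells 2 of 13 VIP and 5 of 10 GABAergic markers rose too, and VIP markers summed to 15214 to 46887 and 15882 to 39487 CPM. Without the 4, no marker of these lists passed in edgeR, with 3 astrocyte, 4 oligodendrocyte, 4 microglia, 2 VIP and 5 GABAergic markers at an unadjusted p under 0.05 and medians of 1.83, 1.71, 1.57, 0.26 and 0.54. The part of these cells in the member changes was not tested.

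In Cre VIP nuclei no member passed the test after light. In edgeR 0 of 94 passed (3 at an unadjusted p under 0.05, 0 in DESeq2), where 0.35% of all genes did, and the median log2 change was 0.08. Cox4i1 changed by 0.25 (SE 0.28, adjusted p = 0.916) and Atp5d by 0.52 (SE 0.25, adjusted p = 0.505). The difference of the light response between Cre and dCre passed for 0 members in edgeR (29 at an unadjusted p under 0.05, 0 in DESeq2) and 0.00486% of all genes, with a median of -0.64 over members, so the responses were not shown to differ gene by gene. Without the 4 dark replicates that median was -0.32, with 1 at an unadjusted p under 0.05, and without E1 dark dCre replicate 3 13 members were called lower in Cre.

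In the dark, VIP nuclei with Cre had higher levels of 32 of 94 members than those with dCre, and lower levels of none. This comparison and the light comparison in dCre use the same 11 dark dCre libraries, 4 of which stood apart, so they are not independent. The median log2 difference of members was 0.78, against 0.04 for all genes, 86 of 94 lay above 0, and 3.88% of all genes were higher. Leaving out those 4 dark libraries, 0 of 95 passed in edgeR (19 at an unadjusted p under 0.05), and the median was 0.42 against 0.12 for all genes. Holding the length index constant left 0, with a member median of 0.10 against 0.05, and this fit has the limit given for the light comparison. DESeq2 called 44 higher on all libraries. By complex, 10 of 17 members of complex V were higher (median 0.96), 9 of 16 of complex IV (0.90), 3 of 8 of complex III (0.91), 3 of 8 of complex II (0.68) and 7 of 44 of complex I (0.67). Without the 4 these medians were 0.52, 0.43, 0.57, 0.44 and 0.33.

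The members with the smallest p were Ndufs7 at 1.29 (SE 0.27, adjusted p = 0.00724), Atp5a1 at 1.32 (SE 0.29, adjusted p = 0.00827), Atp5h, a peripheral stalk subunit, at 1.62 (SE 0.35, adjusted p = 0.00827), Cox4i1 at 1.31 (SE 0.29, adjusted p = 0.00843), Ndufa11 at 1.49 (SE 0.34, adjusted p = 0.00895) and Atp5o at 1.27 (SE 0.29, adjusted p = 0.00944). The light changes of these genes in dCre, which share the dark controls, were 1.16, 0.86, 1.22, 1.41, 1.16 and 1.28 in the same order. Leaving out the 4, the Cre differences were 1.02, 0.85, 0.89, 0.88, 0.89 and 0.79. All 6 stayed above 0 and each shrank. Among redox and catalytic subunits Atp5b (1.27 (SE 0.33, adjusted p = 0.0196)), Sdha (0.60 (SE 0.18, adjusted p = 0.0374)) and Sdhb (0.76 (SE 0.21, adjusted p = 0.0269)) passed. The core protein Uqcrc1 (0.91 (SE 0.25, adjusted p = 0.0254)) and Cox5a (0.78 (SE 0.25, adjusted p = 0.0469)) also passed. Ndufs1 (0.31 (SE 0.18, adjusted p = 0.312)), Ndufv1 (0.81 (SE 0.35, adjusted p = 0.156)) and Uqcrfs1 (0.90 (SE 0.31, adjusted p = 0.0696)) did not. With the length index held, Cox6a1, Cox8a and Uqcrc1 turned to slightly lower values, -0.14, -0.04 and -0.03. Of 60 short members 24 were higher with a median of 0.96, beside 367 of 3257 other short protein-coding genes (11.3%) with 0.67.

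Left-out libraries changed this count of 32 too. It was 6 without E123 dark Cre replicate 3, 14 without E1 dark dCre replicate 1, 15 without E1 dark dCre replicate 2 or E123 dark dCre replicate 1, 17 without E123 dark dCre replicate 2, 18 without E23 dark dCre replicate 1, 19 without E23 dark Cre replicate 2 or 3, and 54 without E1 dark dCre replicate 3. Of the named genes Cox5a lost its call in 13 of 23 omissions, Cox6a1 in 11, Sdha and Cox8a in 10, Uqcrc1 in 7, Ndufa4 and Cox7b in 6, Sdhb in 4, Atp5b in 2, and Atp5o, Cox7a2 and Ndufs7 in 1 each. Beside the members, 7 of 18 tricarboxylic acid cycle genes, 8 of 17 glycolysis genes and 15 of 30 ribosomal protein genes were higher, and 0 of 7 genes of mitochondrial DNA (0 at an unadjusted p under 0.05). Of the 39 genes listed as other assembly factors 2 were higher. These were Cyc1, in fact a complex III subunit, at 1.14 (SE 0.27, adjusted p = 0.00975) and Cox20 at 0.70 (SE 0.22, adjusted p = 0.0398). Ppargc1b, a coactivator of mitochondrial biogenesis, was lower at -1.26 (SE 0.23, adjusted p = 0.00322). The other biogenesis regulators and the carriers are not given for this comparison, so this 1 gene does not stand for its list. Of the glial lists 1 of 10 astrocyte and 1 of 11 microglia markers were higher and 0 of 14 oligodendrocyte markers, with sums of 201 to 599.9, 112 to 194 and 94.4 to 1236 CPM in dark Cre libraries, and their part was not tested. Without the 4, 0 genes of these metabolic and glial lists passed in edgeR. At an unadjusted p under 0.05 were 5 tricarboxylic acid cycle, 5 glycolysis, 9 ribosomal protein and 2 assembly factor genes, with medians of 0.36, 0.37, 0.57 and 0.23, and 1 gene of mitochondrial DNA, 1 astrocyte, 3 microglia and 2 oligodendrocyte markers.

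Line E1 carried the largest difference. There 40 of 94 members were higher with Cre in the dark (median log2 difference 1.47), where 5.09% of all genes were. Every one of the 5 Cre libraries lay above every one of the 3 dCre libraries for 51 of 97 members, against 7.54% of the genes tested. Cox4i1 had 24.7, 3.16 and 35.7 CPM in dark dCre and 113, 121, 81.2, 221 and 133 CPM in dark Cre libraries, without overlap, a log2 difference of 2.71 (SE 0.55, adjusted p = 0.00313). Cox7a2 had 0.184, 10.7 and 11.2 CPM against 36.9, 37.4, 49.2, 56.0 and 33.7 CPM (2.62 (SE 0.61, adjusted p = 0.00634)). Uqcrb had 0.553, 4.11 and 9.95 CPM against 24.9, 24.7, 11.7, 60.4 and 35.5 CPM (2.73 (SE 0.64, adjusted p = 0.00635)). In each of these 3 genes the dCre libraries lay below all the Cre libraries, and dCre replicate 3 was the nearest to them. Atp5b had 28.2, 18.0 and 168 CPM with dCre and 318, 351, 439, 466 and 380.0 CPM with Cre (2.49 (SE 0.63, adjusted p = 0.0109)), and dCre replicate 3 was well above the other 2. Ndufs4, by contrast, had 90.9, 90.1 and 100.2 CPM with dCre and 101, 80.6, 63.7, 100.2 and 108 CPM with Cre, and these overlapped. Cox6c of complex IV had the smallest p at 1.86 (SE 0.38, adjusted p = 0.00304), followed by Cox4i1, Ndufb9 at 2.18 (SE 0.46, adjusted p = 0.00335) and Atp5a1 at 2.53 (SE 0.54, adjusted p = 0.00456). Sdhaf4 had 0 counts in each E1 dark dCre VIP library and 9 to 140 counts in the dark Cre libraries. The E1 dCre replicates 1 and 2 are among those that stood apart, and without them 1 dark dCre library is left in E1, whose spread is then taken from the other groups. In that fit 0 of 95 members passed in edgeR (11 at an unadjusted p under 0.05), and the median was 0.69 against 0.12 for all genes, with Cox4i1 at 1.92 (SE 0.72).

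In the dark VIP comparison E23 had 0 called members in edgeR (3 at an unadjusted p under 0.05) and a median of 0.10, and E123 had 0 (25) and a median of 0.63, which was 0.33 with 0 called (5) without its 2 replicates that stood apart. Tested as a difference between lines, E1 minus E23 passed for 1 member, Sdhaf4, among 0.17% of all genes, with 41 of 94 at an unadjusted p under 0.05 and a median of 1.20. Without the 4 replicates 0 passed (7 at an unadjusted p under 0.05), and the median was 0.55. After light, Cre and dCre VIP nuclei differed in 0 members in edgeR (2 at an unadjusted p under 0.05, 0 in DESeq2), where 0.00486% of all genes passed, with a median of 0.13. Cox4i1 differed there by 0.14 (SE 0.27, adjusted p = 1).

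Total nuclei had called changes in the same direction. After light in dCre, 15 of 92 members rose and none fell (all genes 3.42% higher), with a median of 0.48 against -0.03 for all genes. Leaving out the 4 replicates, 0 of 93 passed in edgeR (8 at an unadjusted p under 0.05), with a median of 0.14 against 0.08. DESeq2 called 20 on all libraries. Atp5d changed by 1.16 (SE 0.21, adjusted p = 0.000287), Atp5o by 1.13 (SE 0.21, adjusted p = 0.00046), Uqcrb by 0.93 (SE 0.20, adjusted p = 0.00321), the complex I subunit Ndufa6 by 0.88 (SE 0.22, adjusted p = 0.0104), Uqcrq of complex III by 0.88 (SE 0.23, adjusted p = 0.0129) and Atp5a1 by 0.85 (SE 0.22, adjusted p = 0.0174). Atp5d had 8.63, 33.2 and 76.2 CPM (lowest, median and highest) in 11 dark and 35.7, 66.8 and 135 CPM in 13 light libraries, with overlapping ranges. Of the called genes, 7 were shared with the 29 of VIP nuclei, which is 7 of 15 here and 7 of 29 there. The sharing over all genes is not given here. Same-numbered VIP and total libraries may come from 1 animal, so the calls in the fractions may not be independent. The difference of the dCre light response between VIP and total nuclei passed for 0 members in edgeR (4 at an unadjusted p under 0.05, 0 in DESeq2) and 0% of all genes, with a median of 0.22, or of 0.20 with 0 called (7 at an unadjusted p under 0.05) without the 4. Beside them 4 of 18 tricarboxylic acid cycle, 5 of 18 glycolysis and 6 of 30 ribosomal protein genes rose, and 0 of each without the 4 (2, 0 and 1 at an unadjusted p under 0.05). Of the glial lists 1 of 10 astrocyte markers rose and 0 of 14 oligodendrocyte and 0 of 11 microglia markers (0 and 3 at an unadjusted p under 0.05), the same counts as without the 4 (0 and 0), and their part was not tested.

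The count of 15 was 5 without E1 dark dCre replicate 1 or 2, 8 without E123 dark dCre replicate 1 or 2, 38 without E123 dark dCre replicate 4 and 52 without E1 dark dCre replicate 3. By line, 18 members rose in E1 (median 1.03, all genes 2.22% higher) and 2 in E123, Uqcrb at 1.63 (SE 0.36, adjusted p = 0.0148) and Atp5d at 1.53 (SE 0.36, adjusted p = 0.0287) (all genes 0.325%). In E23 0 passed in edgeR (1 at an unadjusted p under 0.05), with a median of 0.00. Without the 4 replicates 0 passed in E1 and E123 (3 and 5 at an unadjusted p under 0.05), with medians of 0.34 and 0.06. With Cre, 0 of 92 members changed after light in edgeR (4 at an unadjusted p under 0.05), where 1.49% of all genes did, and DESeq2 called 1 lower.

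Cre and dCre total nuclei, of which VIP cells are a small part, differed in the dark in 1 member, Atp5o at 1.06 (SE 0.21, adjusted p = 0.0191) (all genes 0.066% higher), and 41 of 92 had an unadjusted p under 0.05, with a median of 0.42. This call depended on single libraries of both viruses, since 0 passed without the 4 replicates or without any 1 of E1 dark dCre replicates 1 or 2, E123 dark dCre replicate 1, E123 dark Cre replicate 3, E23 dark dCre replicates 1 or 2, or E23 dark Cre replicate 3. Without E1 dark dCre replicate 3 the count was 41 and without E123 dark dCre replicate 4 it was 17, and DESeq2 called 4 on all libraries. In E1 alone 19 members were higher (median 0.98, all genes 1.5%), with Atp5o at 2.46 (SE 0.40, adjusted p = 0.00133), Uqcrc1 at 1.69 (SE 0.38, adjusted p = 0.0201) and Cox4i1 at 1.62 (SE 0.39, adjusted p = 0.0229). Atp5o had 5.48, 5.07 and 25.8 CPM in dark dCre and 65.1, 72.8, 77.4, 52.0 and 66.4 CPM in dark Cre libraries of E1, with 38.4, 66.3, 54.8, 65.8 and 62.6 CPM in light dCre libraries. The dark dCre libraries lay below all others shown, and 2 of the 3 were the ones that stood apart. Every E1 dark Cre library lay above every E1 dark dCre library for 32 of 97 members, against 5.59% of the genes tested. The test of E1 minus E23 passed for Atp5o alone, at 2.43 (SE 0.52, adjusted p = 0.0386), among 0.033% of all genes, with a median of 1.17 over members. Without the 4 replicates 0 passed in E1 or in this difference (2 and 3 at an unadjusted p under 0.05), and the medians were 0.36 and 0.52. After light 0 of 92 members differed between Cre and dCre in edgeR (3 at an unadjusted p under 0.05, 0 in DESeq2), where 0% of all genes did, with a median of -0.05.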

How the data were processed

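RNA was measured in 96 libraries of sorted nuclei in 24 groups, with poly(A) priming and 17 PCR cycles, without strand or molecular identifiers, per the labels' protocols. The deposited values are raw counts, made with cutadapt 1.18, STAR 2.5.3a and HOMER 4.9.1 on mm10 per the submitters' processing notes. The annotation release, strand setting and use of intronic reads are not given in the sources used here. Totals were 1559883 to 9122515 counts per VIP library and 1881731 to 8972526 per total library. GENCODE vM21 gave symbols and spans (55154 of 55335 identifiers matched) and RefSeq the promoters. Of the members, 44 overlap another annotated gene and 12 pseudogenes have member-like symbols, so their reads may be mixed.

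The quasi-likelihood test of edgeR 4.0.16 (R 4.3.3, TMM, default low-count filter, 1 coefficient per group) was fitted on 48 VIP, 48 total or all 96 libraries, with Benjamini-Hochberg adjustment over all genes. Fractions were compared over 12 conditions, light and virus over 3 lines. SE was derived from the log2 fold change and F. On simulated counts of 20585 genes, the light comparison in dCre VIP nuclei recovered 18 of 100 genes changed by 1 (log2). It recovered 63 of 100 changed by 2 and made 9 false calls. With 22926 genes, the comparison of VIP with total nuclei recovered 50 and 81 of 100 and made 35 false calls. Alternatives were DESeq2 1.42.0, total counts, no filter, the length index, sex, a replicate block, structural subunits only and left-out libraries. Within a fraction the replicate block joined the same number across all groups. Between fractions it joined the same-numbered VIP and total libraries of a condition.

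Named members are the isoform pairs, the highest per kilobase of exon in each complex, and the redox and catalytic subunits with Uqcrc1, Cox4i1 and Cox5a. Up to 6 members per comparison and direction with the smallest p past the threshold are also named, and other lists give up to 4. Other members, such as Ndufs4 and Ndufa8, were named after their values were seen. The members and lists were chosen with earlier results of these data known.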

Additional observations from a re-analysis of the deposited data

Results flagged for a closer look

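The summed level of 97 members was 5725 CPM in replicate 4 of E1 Cre dark VIP nuclei, while the other 4 replicates of that group lay between 4143 and 4590 CPM, a gap large for the range of the group. Of 20 groups of 4 or 5 libraries checked this way 1 met the limit, and chance gives about 1 in 20.

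The difference between Cre and dCre in the dark differed between E1 and E23 for 1 member in VIP nuclei, Sdhaf4 (edgeR, adjusted p = 0.0459), whose counts were 0 in all 3 E1 dark dCre VIP libraries. In total nuclei it differed for 1 member, Atp5o (adjusted p = 0.0386). Neither passed without the 4 dark dCre replicates that stood apart.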

How the results depend on the processing

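Between fractions, 10 members were lower in VIP nuclei, and 21 with total counts in place of TMM, 21 with a replicate block and 6 among 81 structural subunits; 3 were higher, and 8 with the length index as a covariate. Leaving out a replicate number gave 2 to 4 higher and 4 to 12 lower. In dCre VIP nuclei 29 members rose after light, and 0 with the length index, 0 without the 4 dark dCre replicates that stood apart and 0 without the 2 of them in E1 (both omissions chosen after seeing the data). Leaving out single libraries gave 11 to 54 higher and 0 to 1 lower. In dCre total nuclei 15 rose, and 23 rose and 1 fell with no filter on low counts, 27 rose with a replicate block, 2 with the length index, 0 without the 4 and 1 without the 2 in E1, with 5 to 52 over single libraries. In Cre total nuclei DESeq2 called 1 lower where edgeR called 0. For Cre against dCre in dark VIP nuclei 32 were higher, and 0 with the length index, 0 without the 4 and 0 without the 2, with 6 to 54 over single libraries. Cox6a1, Cox8a and Uqcrc1 turned to -0.14, -0.043 and -0.033 with the length index. In dark total nuclei 1 was higher, and 4 in DESeq2, 12 with no filter, 0 with the length index and 0 without the 4, with 0 to 41 over single libraries. The difference of the light response between viruses in VIP nuclei had 0 called members, 2 lower with no filter, and 0 to 13 lower over single libraries. The difference of the response between fractions had 0, and 0 to 1 higher. The causes were not tested, beyond the smaller number of samples or tested members where libraries or members were left out.

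The labels number replicates alike in VIP and total nuclei without stating that a number marks 1 animal. The main fits therefore did not use the numbers as pairs. The data hint that they may be: same-numbered libraries had correlations of deviations from group means of -0.045 to 0.367 (median 0.067, against -0.016 for other numbers), with 19 of 48 over 0.1 and 31 of 48 highest with their own number, their labelled sex matched in 48 of 48, and the same 4 numbers stood apart in both fractions. Within VIP nuclei the replicate block joins the same number across groups and does not pair the fractions. With it 42 members rose in dCre VIP nuclei after light. In the simulated light comparison 18 of 100 genes changed by 1 (log2) were recovered, so members with changes of that size can be missed. That comparison made 9 false calls, and the one of VIP with total nuclei made 35, in both a larger share of the calls than the adjusted p of 0.05 aims at.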
